A study of Mus musculus with 15 samples.

Results

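The genes described here drive or mark the cell division cycle, and their signals were read on 15 arrays of RNA from mouse pancreatic islet cells. They were 43 genes listed by name in 3 roles: 15 regulators of the G1 phase, 9 genes of DNA replication in S phase and 19 genes of G2 and mitosis, called G2/M genes below. A gene was measured through transcript clusters, the probe groups of the array, that the platform annotation gives to that gene alone, and the cluster with the top mean signal stood for the gene. In this way 41 of the 43 were measured, among 19938 genes in all: 14 G1 regulators, 9 S phase genes and 18 G2/M genes. Cdkn1a and Ccnb1 had no cluster of their own under this rule and were not analysed here.

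The arrays (Affymetrix Mouse Gene 1.0 ST) formed 3 groups of 5 by their titles: Pdx1-deficient cells, alpha cells and beta cells, all from mice of a mixed B6 and BALB/C background. Pdx1 is a transcription factor of the insulin-producing beta cell, and alpha cells make glucagon. The Pdx1-deficient cells are labelled PKO and reprogrammed and were taken 5 days after tamoxifen. Alpha cells are labelled RIP-CreER; Pdx1fl/+, RosaYFP and beta cells glucagon-Cre; RosaYFP. Both control groups were sorted for YFP from mice 2 months old. These genotype labels are the reverse of the cells in which the insulin-promoter and glucagon drivers are usually active, and the groups here follow the titles. Each labelling reaction used 500 ng of total RNA. The sources used here give neither the deleted exon nor any tamoxifen treatment of the controls. Nor do they give the sort of the Pdx1-deficient cells or the age of the mice these came from. They also do not say that replicates are separate animals. The p-values therefore measure the spread between these samples alone, and that spread may be technical.

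A cell enters the cycle when D-type cyclins activate the kinases CDK4 and CDK6, which phosphorylate the retinoblastoma protein and release E2F transcription factors, and cyclin E with CDK2 completes the step into S phase. Inhibitors of the INK4 and Cip/Kip families hold these kinases back. In mouse beta cells, which divide rarely in the adult, cyclin D2 and CDK4 are known to be needed for normal beta-cell mass, and menin, the product of Men1, is known to restrain division by maintaining expression of the inhibitor genes Cdkn1b and Cdkn2c. Genes of S phase and of mitosis are transcribed mainly in cells that are dividing, S phase genes largely through E2F and mitotic genes largely through the DREAM and MuvB complexes, which recognise the CHR element, together with NF-Y at CCAAT boxes.

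Promoters of the members differed by role in these elements. RefSeq promoter windows of 250 bases before to 50 bases after a transcript start (build GRCm38.p6) were at hand for 34 of the 43 genes, as 41 windows. The CHR letters TTTGAA or TTCGAA, on either strand, were in 11 of 15 G2/M windows (73.3%), 2 of 9 S phase windows (22.2%) and 0 of 17 G1 windows, and in 19.2% of all 32851 windows. CCAAT, on either strand, was in 13 of 15 G2/M windows (86.7%), all 9 S phase windows and 8 of 17 G1 windows (47.1%), and in 37.4% of all windows. The E2F letters TTTCCCGC or TTTGGCGC, on either strand, were in 0 of 15 G2/M windows, 4 of 9 S phase windows (44.4%) and 2 of 17 G1 windows (11.8%), and in 1.56% of all windows. In 0 of the 41 windows did matches of different motifs overlap. A match describes letters in a window and is neither a bound site nor a cause, and a missing match says nothing about the factor. The windows below belong to the G2/M genes that stood highest on 1 array, Top2a, Mki67 and Cenpf, to the S phase gene Mcm6, and to Cdk4, the member that passed the test between groups. They run 5′ to 3′ in the direction of the gene, and capitals mark the matches of the 3 motifs on either strand. No letter is in capitals in the Cdk4 window.
Top2a promoter, chr11:99024140-99024439, minus strand: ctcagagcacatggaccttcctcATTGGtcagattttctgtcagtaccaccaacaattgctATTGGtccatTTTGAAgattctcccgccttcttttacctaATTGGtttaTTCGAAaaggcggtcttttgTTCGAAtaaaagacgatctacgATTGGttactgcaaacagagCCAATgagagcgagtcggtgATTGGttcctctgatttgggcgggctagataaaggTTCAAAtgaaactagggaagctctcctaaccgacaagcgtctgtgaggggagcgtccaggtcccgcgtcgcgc
Mki67 promoter, chr7:135716330-135716629, minus strand: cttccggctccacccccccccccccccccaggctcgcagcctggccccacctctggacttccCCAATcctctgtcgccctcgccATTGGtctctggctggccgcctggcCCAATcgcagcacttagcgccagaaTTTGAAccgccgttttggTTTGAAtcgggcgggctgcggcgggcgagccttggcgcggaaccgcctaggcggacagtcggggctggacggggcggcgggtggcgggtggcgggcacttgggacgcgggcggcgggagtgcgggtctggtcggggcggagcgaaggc
Cenpf promoter, chr1:189688037-189688336, minus strand: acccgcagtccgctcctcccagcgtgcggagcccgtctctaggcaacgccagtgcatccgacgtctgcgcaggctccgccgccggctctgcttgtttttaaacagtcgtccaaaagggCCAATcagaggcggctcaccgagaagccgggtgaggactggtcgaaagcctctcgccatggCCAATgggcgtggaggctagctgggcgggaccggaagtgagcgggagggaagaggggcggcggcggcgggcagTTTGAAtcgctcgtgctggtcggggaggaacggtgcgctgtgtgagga
Mcm6 promoter, chr1:128359656-128359955, minus strand: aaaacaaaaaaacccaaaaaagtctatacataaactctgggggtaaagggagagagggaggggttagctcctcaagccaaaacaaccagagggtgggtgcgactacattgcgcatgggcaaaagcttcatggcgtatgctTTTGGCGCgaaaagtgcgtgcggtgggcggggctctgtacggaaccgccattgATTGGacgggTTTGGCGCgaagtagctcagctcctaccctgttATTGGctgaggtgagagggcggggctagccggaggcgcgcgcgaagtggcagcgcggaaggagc
Cdk4 promoter, chr10:127063285-127063584, plus strand: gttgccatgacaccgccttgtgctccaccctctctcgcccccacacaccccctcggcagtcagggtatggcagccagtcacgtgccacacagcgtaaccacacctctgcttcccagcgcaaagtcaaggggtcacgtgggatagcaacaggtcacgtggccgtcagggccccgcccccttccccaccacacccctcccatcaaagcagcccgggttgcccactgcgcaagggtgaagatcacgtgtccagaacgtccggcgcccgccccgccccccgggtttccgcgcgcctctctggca

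Pdx1 itself was read first as a check of the labels. Its log2 signal was 9.12, 7.83, 7.68, 6.53 and 7.59 on Pdx1-deficient arrays 1 to 5, 8.15, 7.98, 8.21, 7.70 and 7.27 on alpha arrays, and 8.85, 9.33, 9.26, 9.02 and 9.26 on beta arrays. The array labelled Pdx1-deficient replicate 1 thus lay inside the beta range, and results that rest on it are also given without it. Whether this cluster lies in the deleted part is not given in the sources used here. The mean signal of 8 measured beta-cell markers was 10.13 on the array labelled Pdx1-deficient replicate 1 and 8.54 to 9.14 on the other 4 Pdx1-deficient arrays, 8.58 to 9.21 on alpha arrays and 9.94 to 10.26 on beta arrays. The mean of 5 measured alpha-cell markers was 7.93 to 8.13 on Pdx1-deficient arrays, 8.43 to 8.67 on alpha arrays 1, 3, 4 and 5, 7.85 on the array labelled alpha replicate 2 and 7.72 to 7.85 on beta arrays. Ins2 and Gcg, the main hormone genes of beta and alpha cells, were near the top of the scale everywhere, with Ins2 at 11.77 or more and Gcg at 12.15 or more on each of the 15 arrays.

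At the level of signal over background, the 3 roles differed. A gene was called above background on an array where it passed the 95th percentile of 1027 olfactory receptor genes, taken here as a gauge of dim signal. Of 14 G1 regulators 7 were above it on all 15 arrays, Ccnd1, Ccnd2, Ccnd3, Cdk4, Cdkn1b, Rb1 and Men1, and each of the others on at least 1. Of 9 S phase genes 3 were above it on all 15 arrays, Mcm2, Pcna and Rrm1, and 1, Mcm3, on none. Of 18 G2/M genes 1, Aurka, was above it on all 15 arrays and 8 on none: Bub1, Bub1b, Cdc20, Cenpe, Cenpf, Nusap1, Tpx2 and Foxm1. Over all 19938 genes, 8880 were above it on all arrays and 6588 on none. The threshold itself was 5.79 to 6.06 on Pdx1-deficient arrays, 5.79 to 6.06 on alpha arrays and 5.61 to 5.75 on beta arrays, so the dim end of the scale read higher outside the beta group. For array data the number of arrays limits the precision, and in RNA from many cells a change in the number of dividing cells and a change in RNA per cell cannot be told apart.

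**Figure D1:**
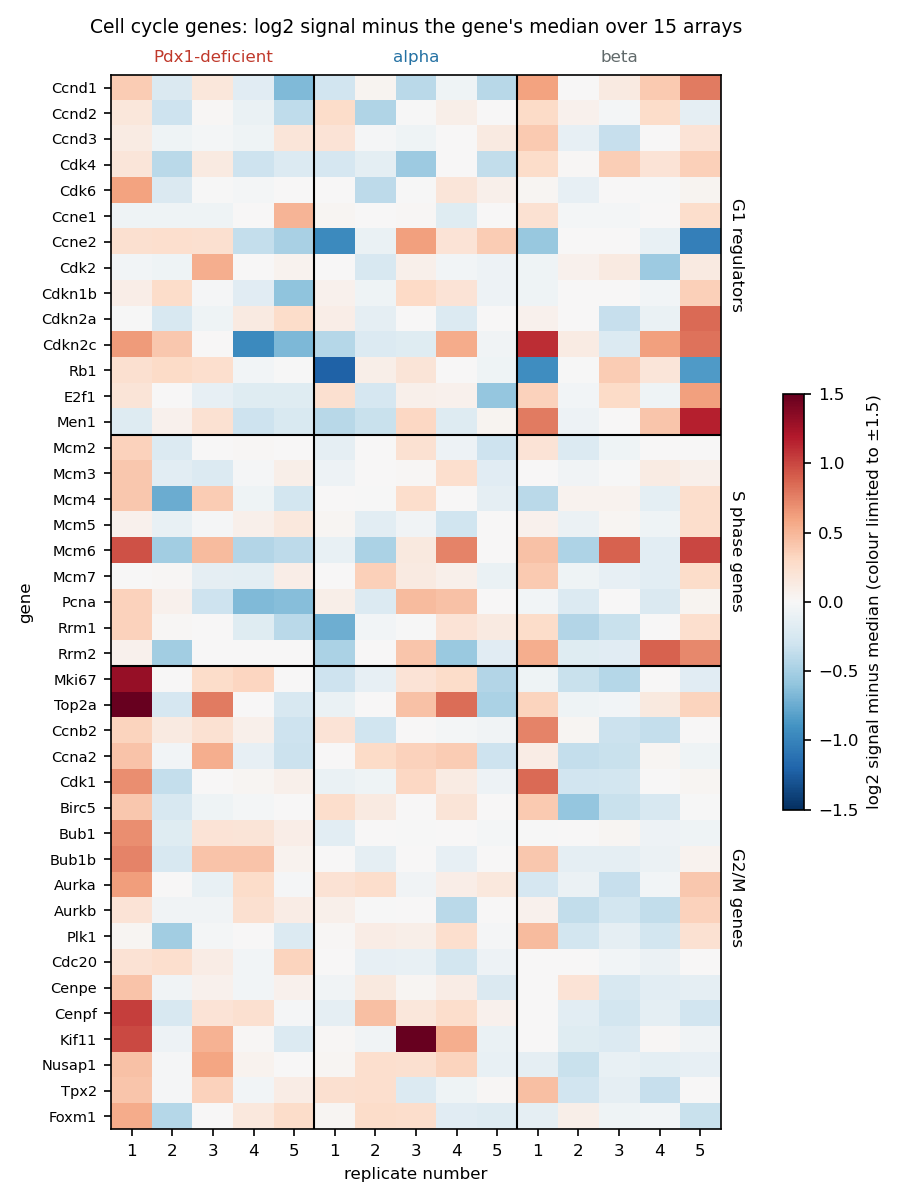
Log2 signal of each of the 41 genes on each array, minus that gene's median over the 15 arrays, with genes in rows by role and arrays in columns by group (Pdx1-deficient, alpha, beta). Red is above and blue below the median. Column 1, the array labelled Pdx1-deficient replicate 1, is red over most G2/M rows, where 9 of 18 genes had their highest value of the 15 arrays.

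Between Pdx1-deficient and beta arrays no cell cycle gene passed the test. The test was limma's moderated fit over all 19938 genes, called at an adjusted p under 0.05. It called 217 genes, 1.09% of those tested, and 0 of the 41. At an unadjusted p under 0.05 it gave 7 of the 41 members, and 21.8% of all genes: Mki67, Cdc20, Cenpf and Nusap1 on the higher side and Ccnd1, Cdk4 and Men1 on the lower side. The median log2 difference was -0.11 over the 14 G1 regulators, -0.02 over the 9 S phase genes and 0.22 over the 18 G2/M genes, and 0.06 over all genes tested.

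Between alpha and beta arrays 1 of the 41 passed, Cdk4, which fell in alpha cells. The same fit called 806 genes there, 4.04% of those tested, with 3.15% lower and 0.893% higher. At an unadjusted p under 0.05 there were 5 members, Nusap1 on the higher side and Ccnd1, Cdk4, Men1 and Rrm2 on the lower side, and 20.7% of all genes. The medians were -0.11 over G1 regulators, -0.04 over S phase genes and 0.10 over G2/M genes, and 0.04 over all genes. Both comparisons use the same beta arrays, so their values for a gene are given side by side and are not independent.

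Between Pdx1-deficient and alpha arrays 0 of the 41 passed, and limma called 0 of all genes tested (percent called 0). At an unadjusted p under 0.05 there were 2 members, Cdc20 higher and Pcna lower, and 6% of all genes. The groups did not overlap for 0 of the 41 and for 0.637% of all genes. The medians were 0.05, 0.01 and 0.09 over the G1, S phase and G2/M genes and 0.02 over all genes.

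**Figure D2:**
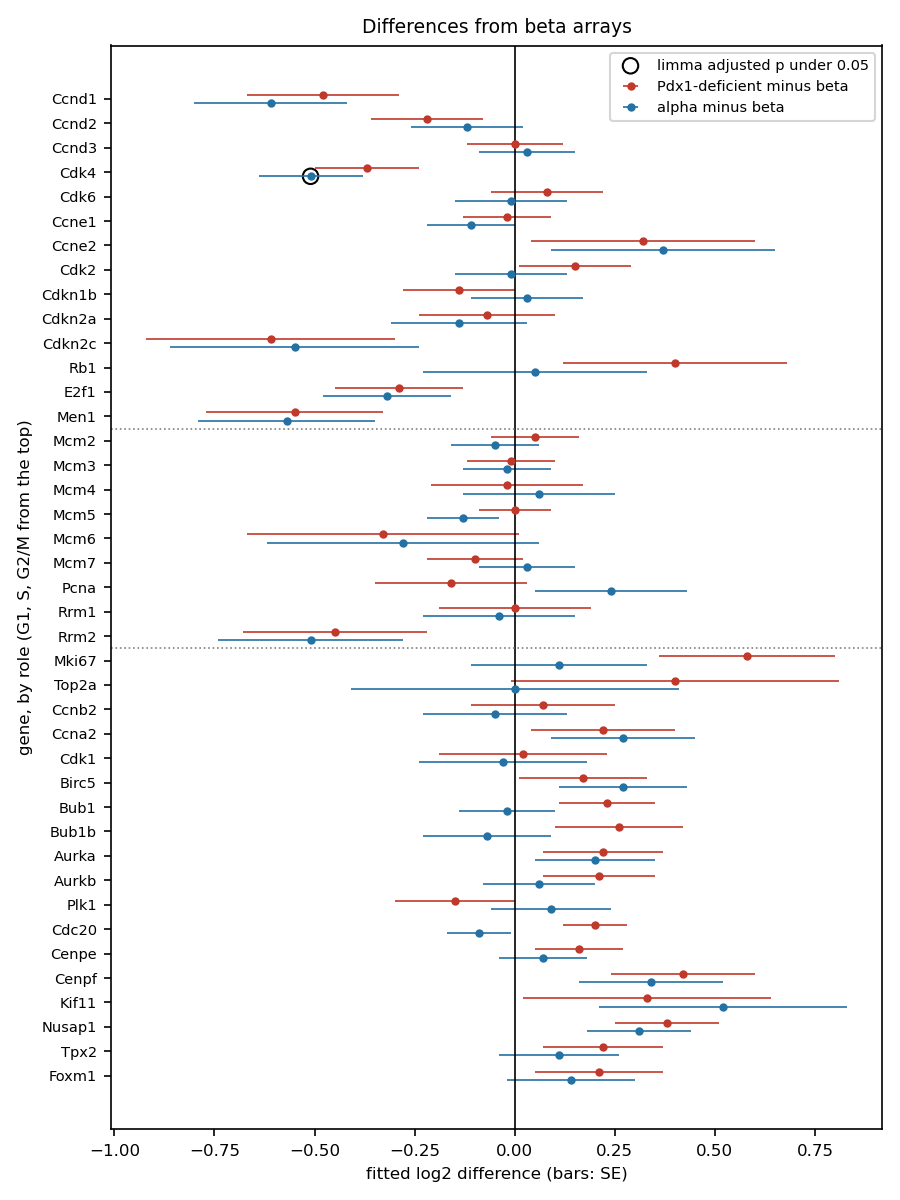
Fitted log2 difference from beta arrays for each of the 41 genes, Pdx1-deficient minus beta in red and alpha minus beta in blue, with bars of 1 SE, and genes in order of role from the top. The circled point, Cdk4 in alpha minus beta (-0.51), is the one difference with a limma adjusted p under 0.05. Pdx1-deficient minus beta lies above 0 for 17 of 18 G2/M genes, where olfactory receptor genes lay above 0 for 914 of 1027.

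Among the G1 regulators, Cdk4, the kinase that D-type cyclins activate, carried the difference that passed. Its log2 signal was 9.40, 8.80, 9.36, 8.91 and 9.01 on Pdx1-deficient arrays 1 to 5, 8.97, 9.06, 8.66, 9.22 and 8.85 on alpha arrays, and 9.49, 9.24, 9.59, 9.43 and 9.58 on beta arrays. All 5 alpha arrays lay below all 5 beta arrays, if narrowly between alpha replicate 4 and beta replicate 2. The difference was -0.51 for alpha minus beta (SE 0.13, limma adjusted p = 0.0436), which is 1.43-fold lower in alpha cells if the log base is 2. For genes lower in alpha cells, 4.05% of all genes had groups that did not overlap. The call was lost in 7 of the 15 fits that left out 1 array (without alpha replicates 1, 3 or 5 or beta replicates 1, 3, 4 or 5), with limma adjusted p = 0.0763 to 0.113 there. It was also lost after quantile normalization, with a difference of -0.30 (limma adjusted p = 0.207), and with trend and robust moderation (limma adjusted p = 0.069). With the replicate number fitted as a block the call was lost too (limma adjusted p = 0.0751). Over all alternatives the limma adjusted p ran from 0.029 to 0.207. In Pdx1-deficient minus beta Cdk4 gave -0.37 (SE 0.13, limma adjusted p = 0.143), with the array labelled replicate 1 and replicate 3 inside the beta range and replicates 2, 4 and 5 below it. Without that array 1 it was -0.45 (limma adjusted p = 0.0807).

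Ccnd1, the gene of cyclin D1, a partner of CDK4, read 9.34, 8.74, 9.13, 8.79 and 8.31 on Pdx1-deficient arrays, 8.67, 9.0, 8.55, 8.91 and 8.55 on alpha arrays, and 9.57, 8.97, 9.10, 9.36 and 9.75 on beta arrays. The alpha and beta groups overlapped only through alpha replicate 2 and beta replicate 2. The difference was -0.48 for Pdx1-deficient minus beta (SE 0.19, limma adjusted p = 0.166) and -0.61 for alpha minus beta (SE 0.19, limma adjusted p = 0.0815). Neither passed, but alpha minus beta passed at -0.68 (limma adjusted p = 0.0406, and 0.0406 to 0.217 over all alternatives) when the arrays labelled alpha replicate 2 and Pdx1-deficient replicate 1 were both left out. The other D-type cyclins gave smaller differences. Ccnd2, the gene of cyclin D2, ranged from 10.97 to 11.52 on Pdx1-deficient arrays, 10.90 to 11.63 on alpha arrays and 11.21 to 11.64 on beta arrays, with differences from beta of -0.22 (95% interval -0.52 to 0.08) for Pdx1-deficient and -0.12 (-0.41 to 0.18) for alpha. Ccnd3, the gene of cyclin D3, ranged from 6.84 to 7.09 on Pdx1-deficient arrays, 6.84 to 7.11 on alpha arrays and 6.56 to 7.30 on beta arrays.

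Men1, the gene of menin, read 7.31, 7.56, 7.73, 7.19 and 7.27 on Pdx1-deficient arrays, 7.08, 7.17, 7.81, 7.31 and 7.54 on alpha arrays, and 8.28, 7.42, 7.50, 7.92 and 8.67 on beta arrays. Beta replicates 1, 4 and 5 were the 3 highest of all 15 arrays, and beta replicates 2 and 3 lay among the values of the other groups. The difference was -0.55 for Pdx1-deficient minus beta (SE 0.22, limma adjusted p = 0.173) and -0.57 for alpha minus beta (SE 0.22, limma adjusted p = 0.152), and neither passed in any alternative tried.

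The inhibitor genes that menin is known to maintain did not pass either. Cdkn2c, an INK4 inhibitor of CDK4 and CDK6, read 6.24, 6.02, 5.60, 4.65 and 4.94 on Pdx1-deficient arrays, 5.17, 5.39, 5.42, 6.17 and 5.55 on alpha arrays, and 6.71, 5.72, 5.39, 6.22 and 6.43 on beta arrays. It was near background, above it on 6 of 15 arrays, and Pdx1-deficient replicates 4 and 5 were the lowest values. The difference was -0.61 for Pdx1-deficient minus beta (SE 0.31, limma adjusted p = 0.265) and -0.55 for alpha minus beta (SE 0.31, limma adjusted p = 0.329). Cdkn1b, a Cip/Kip inhibitor of CDK2, read 8.49, 8.65, 8.37, 8.22 and 7.78 on Pdx1-deficient arrays, 8.45, 8.32, 8.69, 8.59 and 8.31 on alpha arrays, and 8.33, 8.40, 8.39, 8.35 and 8.75 on beta arrays. The groups overlapped widely, with differences from beta of -0.14 (95% interval -0.45 to 0.17) for Pdx1-deficient and 0.03 (-0.28 to 0.34) for alpha. A second cluster of Cdkn1b ran differently. It read 9.08, 8.24, 7.73, 8.23 and 7.90 on Pdx1-deficient arrays, 9.17, 8.58, 8.62, 8.87 and 8.24 on alpha arrays, and 6.89, 8.36, 8.16, 7.53 and 8.26 on beta arrays. Beta replicate 1 was far below the rest, and beta replicate 4 was the next lowest, close to Pdx1-deficient replicate 3.

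Rb1, the gene of the retinoblastoma protein, split the arrays in another way. It read 8.18, 8.22, 8.19, 7.89 and 7.92 on Pdx1-deficient arrays, 6.72, 8.02, 8.12, 7.93 and 7.87 on alpha arrays, and 7.0, 7.92, 8.31, 8.11 and 7.08 on beta arrays. Alpha replicate 1 and beta replicates 1 and 5 were at 7.08 or lower, where the other 12 arrays read 7.87 to 8.31. The difference from beta was 0.40 for Pdx1-deficient (SE 0.28, limma adjusted p = 0.401) and 0.05 for alpha (SE 0.28, limma adjusted p = 0.936). Ccne2, the gene of cyclin E2, had its 3 lowest values on the same 3 arrays, at 5.36 on alpha replicate 1, 5.73 on beta replicate 1 and 5.27 on beta replicate 5, against 5.81 to 6.92 on the other 12.

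Cdk2, the partner kinase of cyclin E, read 6.09, 6.07, 6.67, 6.13 and 6.18 on Pdx1-deficient arrays, 6.13, 5.88, 6.21, 6.09 and 6.05 on alpha arrays, and 6.07, 6.20, 6.26, 5.59 and 6.27 on beta arrays. Pdx1-deficient replicate 3 and beta replicate 4 stood at its ends, and the groups overlapped. The remaining G1 genes are given by their ranges: Cdk6, the other kinase of cyclin D, from 4.87 to 5.85, Ccne1, the gene of cyclin E1, from 5.74 to 6.43, Cdkn2a, the INK4a and ARF locus, from 5.47 to 6.67, and E2f1, the transcription factor held by Rb1, from 5.41 to 6.60 over the 15 arrays. Their differences from beta did not pass.

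**Figure D3:**
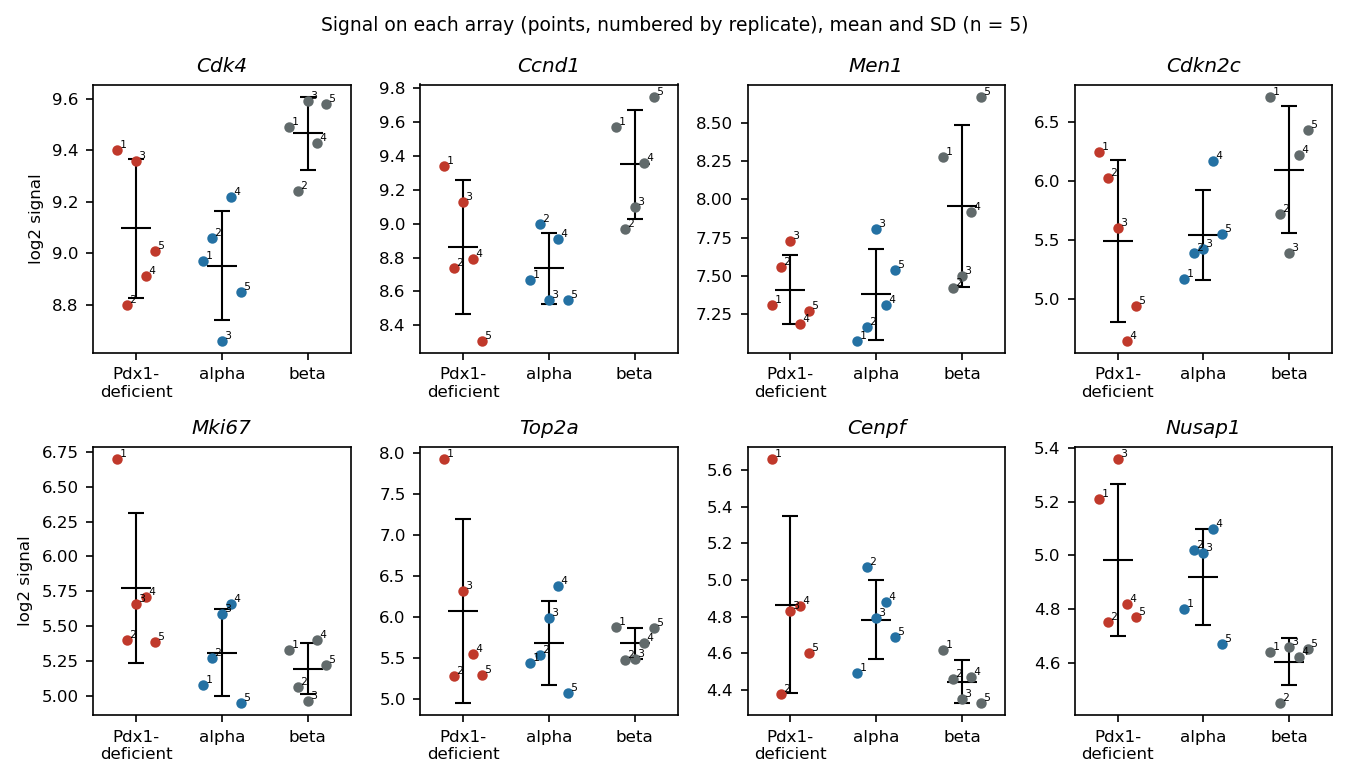
Log2 signal of 8 genes on each array, as points numbered by replicate, with the mean and SD of each group (n = 5) as bars, for Pdx1-deficient, alpha and beta arrays from left to right. The vertical axes differ between genes and do not start at 0. Cdk4 is lower on all alpha arrays than on all beta arrays, and the array numbered 1 of the Pdx1-deficient group stands apart for Mki67 (6.70), Top2a (7.93) and Cenpf (5.66).

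The S phase genes gave 0 of 9 past the threshold in each of the 3 comparisons (limma). At an unadjusted p under 0.05 there were 0 against beta in Pdx1-deficient cells, 1 against beta in alpha cells (Rrm2) and 1 in Pdx1-deficient against alpha cells (Pcna). Pcna, the sliding clamp of DNA polymerase, read 10.44, 10.15, 9.78, 9.43 and 9.45 on Pdx1-deficient arrays, 10.18, 9.88, 10.57, 10.54 and 10.09 on alpha arrays, and 10.06, 9.89, 10.10, 9.88 and 10.13 on beta arrays. The beta arrays were close together, and the lowest values of all were Pdx1-deficient replicates 3, 4 and 5. The difference was -0.16 for Pdx1-deficient minus beta (SE 0.19, limma adjusted p = 0.612), 0.24 for alpha minus beta (SE 0.19, limma adjusted p = 0.469) and -0.40 for Pdx1-deficient minus alpha (SE 0.19, limma adjusted p = 0.825). A second cluster of Pcna gave nearly the same values, from 9.43 to 10.53.

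Rrm2, the regulated subunit of ribonucleotide reductase, which makes the building blocks of DNA, read 6.11, 5.53, 6.05, 6.05 and 6.05 on Pdx1-deficient arrays, 5.59, 6.06, 6.47, 5.50 and 5.89 on alpha arrays, and 6.59, 5.88, 5.88, 6.95 and 6.77 on beta arrays. Beta replicates 1, 4 and 5 were the highest of the 15 arrays, as they were for Men1, while beta replicates 2 and 3 lay among the other groups. The difference was -0.45 for Pdx1-deficient minus beta (SE 0.23, limma adjusted p = 0.259) and -0.51 for alpha minus beta (SE 0.23, limma adjusted p = 0.22). Rrm1, the other subunit, ranged from 6.41 to 7.16 on Pdx1-deficient arrays, 6.09 to 7.02 on alpha arrays and 6.38 to 7.10 on beta arrays.

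The Mcm genes encode the subunits of the replicative helicase. Mcm6 varied most, at 6.92, 5.45, 6.44, 5.53 and 5.58 on Pdx1-deficient arrays, 5.86, 5.49, 6.12, 6.71 and 5.97 on alpha arrays, and 6.41, 5.52, 6.86, 5.81 and 6.97 on beta arrays. Each group held both high and low arrays, and the differences from beta were -0.33 (95% interval -1.05 to 0.39) for Pdx1-deficient and -0.28 (-1.0 to 0.44) for alpha. Mcm5 was at or near background, at 5.56, 5.39, 5.48, 5.57 and 5.66 on Pdx1-deficient arrays, 5.53, 5.34, 5.44, 5.19 and 5.50 on alpha arrays, and 5.56, 5.40, 5.52, 5.43 and 5.76 on beta arrays. Mcm7 read 5.68, 5.71, 5.56, 5.54 and 5.79 on Pdx1-deficient arrays, 5.69, 6.05, 5.83, 5.77 and 5.59 on alpha arrays, and 6.08, 5.63, 5.57, 5.53 and 5.96 on beta arrays. For Mcm5 and Mcm7 no group stood clear of another. Mcm2 ranged from 6.47 to 7.12, Mcm3 from 4.37 to 4.98 and Mcm4 from 5.05 to 6.21 over the 15 arrays, each with its highest value on the array labelled Pdx1-deficient replicate 1.

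The G2/M genes lay mostly above 0 in Pdx1-deficient minus beta, by small amounts and with 0 of 18 past the threshold (limma; 4 at an unadjusted p under 0.05). Their difference was positive for 17 of 18, with Plk1, a mitotic kinase, as the exception (-0.15), and their median was 0.22. Over all genes tested 60.8% were positive, and over the olfactory receptor genes, which gauge the dim end of the scale, 914 of 1027 (89%) were positive with a median of 0.11. Without the array labelled Pdx1-deficient replicate 1, 15 of 18 (83.3%) were positive with a median of 0.12, against 90.4% of the olfactory receptor genes with a median of 0.13. With array medians subtracted 16 of 18 (88.9%) were positive with a median of 0.18, against 78.6% of the olfactory receptor genes with a median of 0.07. After quantile normalization 15 of 18 (83.3%) were positive with a median of 0.11, against 61.9% of the olfactory receptor genes with a median of 0.03. In alpha minus beta 13 of 18 (72.2%) were positive with a median of 0.10, against 58.2% of all genes. Of the olfactory receptor genes 891 of 1027 (86.8%) were positive there, with a median of 0.10. The part that dim signals play in these medians was not tested further.

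Mki67, the gene of the Ki-67 antigen that marks dividing cells, read 6.70, 5.40, 5.66, 5.71 and 5.39 on Pdx1-deficient arrays, 5.08, 5.27, 5.59, 5.66 and 4.95 on alpha arrays, and 5.33, 5.06, 4.96, 5.40 and 5.22 on beta arrays. It was above background on 1 array, the one labelled Pdx1-deficient replicate 1. The other 4 Pdx1-deficient arrays, at 5.39 to 5.71, overlapped the alpha arrays and met the beta range only at beta replicate 4 (5.40). The difference was 0.58 for Pdx1-deficient minus beta (SE 0.22, limma adjusted p = 0.16), and 0.34 without the array labelled replicate 1 (limma adjusted p = 0.198). In alpha minus beta it was 0.11 (95% interval -0.35 to 0.58).

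Top2a, the topoisomerase that untangles replicated chromosomes, read 7.93, 5.28, 6.31, 5.54 and 5.29 on Pdx1-deficient arrays, 5.44, 5.53, 5.98, 6.38 and 5.07 on alpha arrays, and 5.87, 5.47, 5.49, 5.68 and 5.86 on beta arrays. A single array stood 1.56 above all others, and the next highest were alpha replicate 4 and Pdx1-deficient replicate 3. The difference was 0.40 for Pdx1-deficient minus beta (SE 0.41, limma adjusted p = 0.562) and -0.07 without the array labelled replicate 1 (limma adjusted p = 0.876). A second, dim cluster of Top2a, at 3.42 to 4.68, read 3.72 on that array and did not stand out there.

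Cenpf, a kinetochore protein of late G2 and mitosis, read 5.66, 4.38, 4.83, 4.86 and 4.60 on Pdx1-deficient arrays, 4.49, 5.07, 4.79, 4.88 and 4.69 on alpha arrays, and 4.62, 4.46, 4.35, 4.47 and 4.33 on beta arrays. The array labelled Pdx1-deficient replicate 1 was again the highest, and no array was above background. The difference from beta was 0.42 for Pdx1-deficient (SE 0.18, limma adjusted p = 0.206), 0.22 without that array, and 0.34 for alpha (SE 0.18, limma adjusted p = 0.311). Bub1b, a kinase-like protein of the spindle checkpoint, read 5.43, 4.45, 5.12, 5.12 and 4.74 on Pdx1-deficient arrays, 4.69, 4.56, 4.69, 4.57 and 4.69 on alpha arrays, and 5.10, 4.56, 4.55, 4.60 and 4.74 on beta arrays. Its difference from beta was 0.26 (SE 0.16, limma adjusted p = 0.325) for Pdx1-deficient and -0.07 (SE 0.16, limma adjusted p = 0.815) for alpha.

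Nusap1, a microtubule protein of the mitotic spindle, was the member whose beta arrays lay below the arrays of both other groups. It read 5.21, 4.75, 5.36, 4.82 and 4.77 on Pdx1-deficient arrays, 4.80, 5.02, 5.01, 5.10 and 4.67 on alpha arrays, and 4.64, 4.45, 4.66, 4.62 and 4.65 on beta arrays. Non-overlap upward was met by 2.77% of all genes in Pdx1-deficient against beta and by 2.29% in alpha against beta, and the gap was as little as 0.01 between alpha replicate 5 and beta replicate 3. The difference was 0.38 for Pdx1-deficient minus beta (SE 0.13, limma adjusted p = 0.123) and 0.31 for alpha minus beta (SE 0.13, limma adjusted p = 0.17), below background on every array. Kif11, the motor that separates spindle poles, read 5.73, 4.66, 5.25, 4.75 and 4.53 on Pdx1-deficient arrays, 4.75, 4.68, 6.52, 5.29 and 4.63 on alpha arrays, and 4.74, 4.55, 4.54, 4.75 and 4.68 on beta arrays. Alpha replicate 3 was the highest of the 15 and the only one above background, and the beta arrays lay close together. The difference from beta was 0.33 for Pdx1-deficient (SE 0.31, limma adjusted p = 0.521), with 0.15 when the array labelled replicate 1 was left out. For alpha it was 0.52 (SE 0.31, limma adjusted p = 0.357), with 0.19 at the lowest when 1 array was left out.

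Cdc20, the activator of the anaphase-promoting complex, gave the smallest unadjusted p of the members between Pdx1-deficient and alpha arrays. It ranged from 5.50 to 5.87 on Pdx1-deficient arrays, 5.28 to 5.55 on alpha arrays and 5.45 to 5.55 on beta arrays, below background on all 15. The difference was 0.29 for Pdx1-deficient minus alpha (SE 0.08, limma adjusted p = 0.382). The other G2/M genes are given by their ranges. Aurka, a spindle kinase and the G2/M gene above background on every array, ranged from 6.05 to 6.78 on Pdx1-deficient arrays, 6.10 to 6.42 on alpha arrays and 5.81 to 6.57 on beta arrays. Cdk1, the kinase of mitotic entry, ranged from 5.19 to 6.24 on Pdx1-deficient arrays, 5.45 to 5.86 on alpha arrays and 5.26 to 6.40 on beta arrays. Ccnb2, the gene of cyclin B2, ranged from 5.38 to 6.02 on Pdx1-deficient arrays, 5.40 to 5.91 on alpha arrays and 5.33 to 6.44 on beta arrays. Both had their highest value on beta replicate 1. Foxm1, a transcription factor of mitotic genes, ranged from 4.70 to 5.69 on Pdx1-deficient arrays, 4.94 to 5.41 on alpha arrays and 4.80 to 5.23 on beta arrays. Ccna2, Birc5, Bub1, Aurkb, Cenpe and Tpx2 also did not pass in any comparison.

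On 1 array many of the S phase and G2/M members stood at their highest. The array labelled Pdx1-deficient replicate 1 held the highest of the 15 values for 14 of the 41 genes (34.1%): 9 of 18 G2/M genes, 4 of 9 S phase genes and 1 of 14 G1 regulators. It held the highest value for 2.62% of all 19938 genes and for 1.95% of the olfactory receptor genes. The 9 G2/M genes were Top2a, Mki67, Cenpf, Bub1b, Bub1, Aurka, Foxm1, Cenpe and Birc5. The S phase genes were Mcm2, Mcm3, Mcm4 and Rrm1, and the G1 regulator was Cdk6. Their excess over the highest of the other 14 arrays was 1.56 for Top2a, 0.99 for Mki67 and 0.59 for Cenpf but 0.02 for Birc5 and 0.03 for Mcm4. S phase genes outside the members did not share this: of 34 listed, 3 (8.82%) had their highest value on this array. Beta replicates 5 and 1 held the highest value for 8 (23.5%) and 6 (17.6%) of those 34.

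The mean signal of the 18 G2/M genes was 5.83 on that array and 5.04 to 5.39 on the other 4 Pdx1-deficient arrays, 5.07 to 5.36 on alpha arrays and 4.97 to 5.35 on beta arrays. This array also carried the beta-level Pdx1 signal given above. Of 10 leukocyte markers the mean was 5.28 there, inside the ranges of Pdx1-deficient (4.99 to 5.34), alpha (5.13 to 5.35) and beta arrays (4.99 to 5.38). Of 8 endothelial markers it was 5.17, of 8 stromal markers 5.78 and of 5 duct markers 5.84, each inside the range of the alpha arrays. Of the leukocyte markers 3 of 10 were above background on that array, as on beta replicates 1 and 5, and the pan-leukocyte gene Ptprc was below it, at 4.33 to 4.82 over the 15 arrays. C1qa, a macrophage gene, read 7.34 there and 5.69 to 6.66 on the other 4 Pdx1-deficient arrays, 6.42 to 6.97 on alpha arrays and 6.49 to 8.41 on beta arrays. The mean of 9 acinar markers was 6.44 on Pdx1-deficient replicate 1 and 5.82 to 6.08 on the other 4 Pdx1-deficient arrays. It was 5.83 to 11.21 on alpha arrays and 5.77 to 6.55 on beta arrays. The acinar marker Ctrb1, chosen after its values were seen, read 9.5 on Pdx1-deficient replicate 1 and 6.76 to 7.38 on the other 4. On alpha arrays Ctrb1 read 6.63 to 12.94 and on beta arrays 6.84 to 9.15. The part of other cell types, acinar cells included, in the G2/M signals was not tested. With Pdx1-deficient replicate 1 left out, 0 of the 41 genes passed against beta or against alpha. The S phase median against beta was then -0.10 with 0 of 9 positive, and the G1 median was -0.13. Over all genes 61.5% were positive in that fit, with a median of 0.07. The array left out had held the highest value of 4 of the 9 S phase genes. The differences from beta were then -0.60 for Ccnd1, -0.52 for Men1, -0.79 for Cdkn2c, -0.56 for Mcm6, -0.30 for Pcna, -0.49 for Rrm2, 0.15 for Bub1b and 0.32 for Nusap1.

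**Figure D4:**
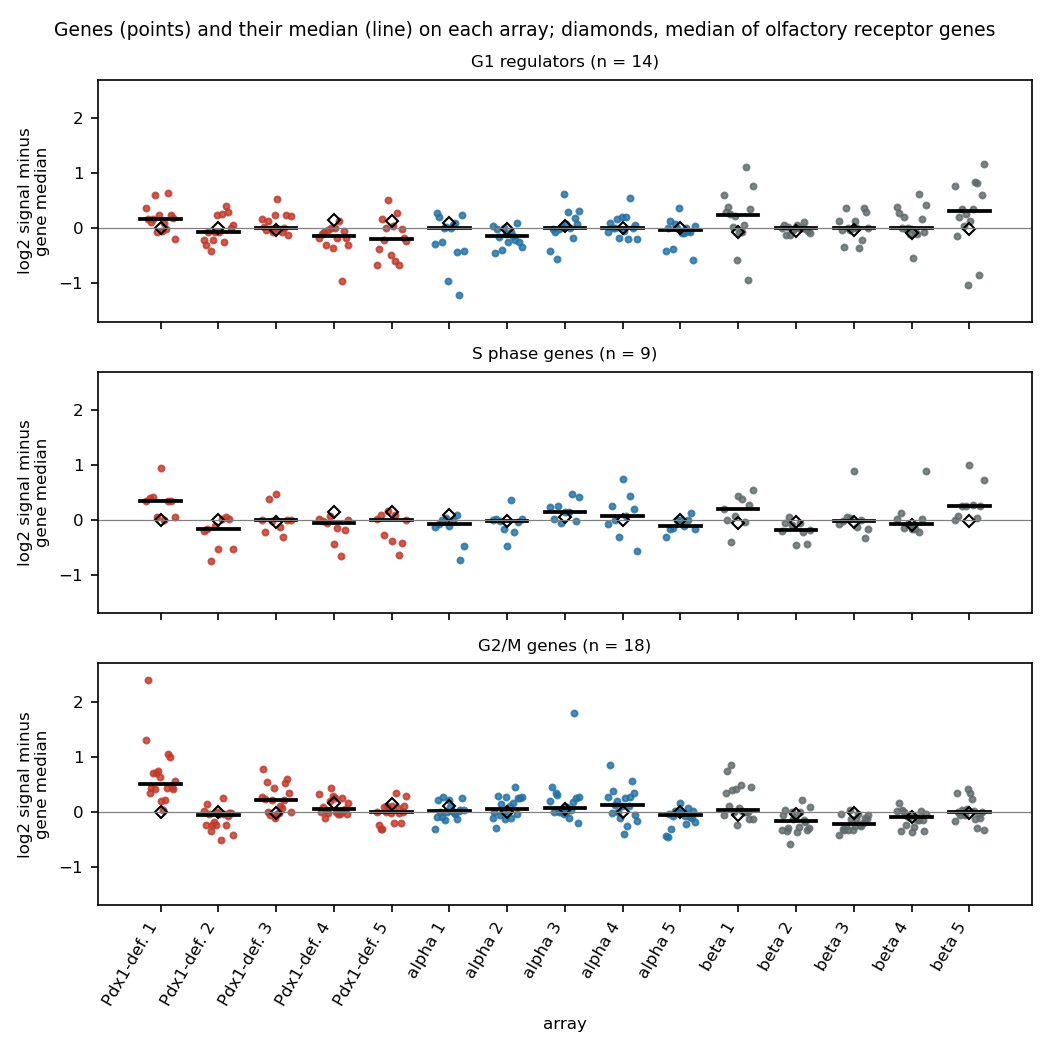
Log2 signal minus the gene's median over the 15 arrays, with 1 point per gene, for G1 regulators, S phase genes and G2/M genes from top to bottom, and arrays in columns by group (Pdx1-deficient, alpha, beta). Lines are the median over the genes of that role and diamonds the median of olfactory receptor genes on the same array. On the array labelled Pdx1-deficient replicate 1 the G2/M line lies at 0.50 while the diamond lies at 0.

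No other array did the same. The median deviation of the G2/M genes was 0.21 on Pdx1-deficient replicate 3 and at most 0.11 in size on the other Pdx1-deficient and the alpha arrays, and it was -0.17 and -0.22 on beta replicates 2 and 3. Beta replicates 1 and 5 each held the highest value for 8 of the 41 genes (19.5%), where they held it for 8.18% and 11.8% of all genes. On beta replicate 5 these were mainly G1 regulators, 5 of 14, and on beta replicate 1 they were 3 G1, 1 S phase and 4 G2/M genes. Pdx1-deficient replicates 4 and 5 held the highest value for 15.1% and 15.7% of all genes and for 25.8% and 23.8% of the olfactory receptor genes, but for 0 and 2 of the 41.

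Other genes of the same machinery, in 4 lists, mostly did not pass either. Of 28 other G1 genes 1 fell in Pdx1-deficient against beta and 2 in alpha against beta, and 0 rose in either. Of 34 other S phase genes 0 passed in Pdx1-deficient against beta and 1 fell in alpha against beta. Of 49 other G2/M genes 1 rose in each of these comparisons, and in Pdx1-deficient against beta 1 more, Spc25, fell when the array labelled Pdx1-deficient replicate 1 was left out. Of 12 partners of menin and Polycomb proteins 1 rose in each. In Pdx1-deficient against alpha 0 genes of any of the 4 lists passed (limma), and at an unadjusted p under 0.05 there were 4 other G1, 1 other S phase, 4 other G2/M and 0 menin or Polycomb genes. The percentages of all genes called are those given above.

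Mnat1, the assembly factor of the CDK-activating kinase, read 8.14, 7.89, 7.76, 7.62 and 7.16 on Pdx1-deficient arrays, 8.29, 8.39, 7.99, 8.15 and 8.03 on alpha arrays, and 8.59, 8.44, 8.27, 8.47 and 8.22 on beta arrays. It fell by 0.69 in Pdx1-deficient against beta (SE 0.15, limma adjusted p = 0.0429) and gave -0.23 in alpha against beta (limma adjusted p = 0.396). All 5 Pdx1-deficient arrays lay below the beta arrays, narrowly between 8.14 and 8.22. Non-overlap downward in Pdx1-deficient against beta was met by 635 of all 19938 genes. Its call held in 3 of the 15 fits that left out 1 array. Kif4, a mitotic chromosome motor, rose by 0.41 in Pdx1-deficient against beta (SE 0.09, limma adjusted p = 0.0414) but was below background on all 15 arrays, at 4.04 to 4.30 on Pdx1-deficient arrays, 3.63 to 3.95 on alpha arrays and 3.54 to 3.85 on beta arrays, and its call held in 4 of the 15. When Pdx1-deficient replicate 1 was left out, the differences from beta were -0.79 for Mnat1 (limma adjusted p = 0.0124) and 0.36 for Kif4 (limma adjusted p = 0.0482).

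Kmt2a, the histone methyltransferase that menin binds, was higher in both other groups than in beta cells. It read 9.51, 9.96, 9.75, 9.82 and 10.03 on Pdx1-deficient arrays, 10.02, 9.67, 9.80, 9.91 and 9.88 on alpha arrays, and 9.07, 9.44, 9.43, 9.31 and 8.86 on beta arrays. No array of either group fell into the beta range. Non-overlap upward was met by 2.77% of all genes in Pdx1-deficient against beta and by 2.29% in alpha against beta. It rose by 0.59 in Pdx1-deficient against beta (SE 0.13, limma adjusted p = 0.0367) and by 0.63 in alpha against beta (SE 0.13, limma adjusted p = 0.0148). The alpha call held in all 15 fits that left out 1 array, and the Pdx1-deficient call in 7 of them.

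In alpha against beta Rpa1, the large subunit of the single-strand DNA binding protein, fell in every alternative tried. It read 7.69, 8.02, 7.76, 7.66 and 7.43 on Pdx1-deficient arrays, 6.96, 7.87, 7.18, 7.11 and 6.60 on alpha arrays, and 8.38, 8.13, 7.96, 8.24 and 8.64 on beta arrays. The highest alpha array, replicate 2, was the one with beta-like alpha markers, and of the Pdx1-deficient arrays replicates 1, 3, 4 and 5 lay inside the alpha range and replicate 2 inside the beta range. The difference was -1.13 in alpha against beta (SE 0.19, limma adjusted p = 0.00766, passing in all 24 alternatives) and -0.56 in Pdx1-deficient against beta (SE 0.19, limma adjusted p = 0.136). In Pdx1-deficient against alpha Rpa1 gave 0.57 (SE 0.19, limma adjusted p = 0.605). There it passed in 1 of the 15 fits that left out 1 array (limma adjusted p = 0.0436).

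Cks1b, a small subunit that binds CDKs, read 9.08, 8.14, 8.34, 8.18 and 6.90 on Pdx1-deficient arrays, 7.92, 8.50, 6.84, 8.08 and 8.14 on alpha arrays, and 9.66, 8.69, 8.85, 9.47 and 9.88 on beta arrays. All alpha arrays lay below all beta arrays, which 4.05% of all genes met. The difference was -1.41 (SE 0.37, limma adjusted p = 0.0474), with -1.18 in Pdx1-deficient against beta (limma adjusted p = 0.112). Its alpha call held in 4 of the 15 fits that left out 1 array. Tfdp1, the dimer partner of E2F, fell by 0.37 in alpha against beta (SE 0.10, limma adjusted p = 0.0441), with 7.65 to 8.19 on alpha arrays and 8.15 to 8.39 on beta arrays, and its call held in 3 of the 15. Wee1, the kinase that restrains CDK1, rose by 0.51 in alpha against beta (SE 0.13, limma adjusted p = 0.0411), with 7.41 to 7.75 on alpha arrays and 6.88 to 7.38 on beta arrays, and its call held in 7 of the 15.

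Spc25, a kinetochore gene, had the largest difference of these lists that did not pass. It read 10.32, 7.44, 9.07, 8.27 and 7.55 on Pdx1-deficient arrays, 9.49, 9.08, 8.82, 8.88 and 8.89 on alpha arrays, and 10.24, 10.29, 9.15, 10.35 and 9.48 on beta arrays. The array labelled Pdx1-deficient replicate 1 lay inside the beta range, and the other 4 Pdx1-deficient arrays lay below it. The difference was -1.37 in Pdx1-deficient against beta (SE 0.44, limma adjusted p = 0.116), and -1.82 with that array left out, where it passed (limma adjusted p = 0.0131). It was -0.87 in alpha against beta (limma adjusted p = 0.278) and -0.50 in Pdx1-deficient against alpha (limma adjusted p = 0.971). The signal lay far above those of the kinetochore genes Nuf2 (3.73 to 5.31), Ndc80 (4.40 to 4.87) and Spc24 (4.86 to 6.50). The beta-cell marker G6pc2, chosen after its values were seen, read 12.17, 10.32, 11.21, 10.67 and 9.80 on Pdx1-deficient arrays. On alpha arrays G6pc2 read 9.75 to 10.80 and on beta arrays 11.92 to 12.12. It is 1 of the 8 beta-cell markers, and they did not all differ in this way. Ins2 read 11.90 to 12.12 on Pdx1-deficient arrays and 11.77 to 11.98 on beta arrays. Mafa read 6.36 to 6.55 on Pdx1-deficient arrays and 6.33 to 6.79 on beta arrays. Whether the Spc25 cluster reads Spc25 alone was not tested.

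Among the other genes with large differences that did not pass, Gins4, Rnf2 and Cks2 each had 1 array far from the rest of its group. Gins4, a subunit of the GINS replication complex, read 4.94 on Pdx1-deficient replicate 4 and 7.93 to 8.59 on the other 4 Pdx1-deficient arrays, 8.05 to 9.51 on alpha arrays and 8.12 to 8.46 on beta arrays, with -0.78 in Pdx1-deficient against beta. Rnf2, a Polycomb ubiquitin ligase, read 4.65 on that same array, 6.89 to 7.83 on the other 4, 7.40 to 7.80 on alpha arrays and 7.26 to 7.99 on beta arrays. Cks2, a second small CDK subunit, read 7.01 on the array labelled Pdx1-deficient replicate 1 and 3.93 to 5.72 on the other 14. These are values of the brightest of its 3 clusters, and the others were not looked at singly. Of the 49 other G2/M genes, 12 (24.5%) had their highest value on the array labelled Pdx1-deficient replicate 1, among them Nuf2, a kinetochore gene, at 5.31, and Hmmr, a spindle gene, at 4.11, where the other arrays read 3.73 to 4.67 and 3.38 to 3.74. Nuf2 and Hmmr were chosen after their values were seen. Prim1, the catalytic subunit of primase, gave -0.75 in Pdx1-deficient against beta (limma adjusted p = 0.143). In Pdx1-deficient against alpha E2f6, a repressor of the E2F family, gave 0.55 (limma adjusted p = 0.625), Pbk, a mitotic kinase, 0.37 (limma adjusted p = 0.968) and Bmi1, a Polycomb protein, 0.24 (limma adjusted p = 0.969).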

How the data were processed

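The authors made the deposited log2 signals, 2.11 to 13.45, with Affymetrix Expression Console, per the submitters' processing notes, which name no version. The log base, the summarization and the build were not given in the sources used here. The scale was read from the range of values. Array medians were 5.88 to 6.05, and 0 pairs of arrays were identical. The platform annotation gave 21789 of 35556 transcript clusters 1 gene symbol, 1621 several and 12146 none, and clusters with several or none were left out. Gene IDs matched RefSeq (GRCm38.p6) for 21698, and 0 symbols changed. The brightest cluster stood for each of 19938 genes.

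Groups came from the sample titles, and Pdx1-deficient, alpha and beta arrays (n = 5 each) were compared pairwise with limma 3.58.1 in R 4.3.3 (lmFit and eBayes, 3 group means, no block), with Benjamini-Hochberg adjustment over all genes and a threshold of 0.05. The scripts were tested on simulated data. Alternatives covered scaling, dim clusters, moderation, weights, cluster choice, the samples fitted, a replicate block and each array left out. Per-array values are given for members that passed or whose groups did not overlap in a comparison and for the 3 of each role with the largest difference in each comparison. In the other 4 lists the genes that passed are named (at most 6 per list and comparison), and otherwise the 2 with the largest difference. Members and lists were chosen with earlier results of these data known. No test was run on a list.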

Additional observations from a re-analysis of the deposited data

Results flagged for a closer look

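In 15 of 126 groups of 5 arrays tested, for 41 genes and Pdx1, 1 array stood far from the other 4 by Dixon's criterion. That is 11.9% of these groups, against 7.77% of the groups over all 19938 genes and 8.02% over the olfactory receptor genes, and the criterion is set for about 1 in 20 by chance. Of these 3 were on the array labelled Pdx1-deficient replicate 1, where Mki67 was 6.70, Cdk6 5.85 and Cenpe 4.83, each the highest of its group. Elsewhere in the Pdx1-deficient group Rrm2 was lowest at 5.53 on replicate 2, Cdk2 highest at 6.67 on replicate 3 and Ccne1 highest at 6.43 on replicate 5. Among alpha arrays replicate 1 held the lowest Rb1 (6.72), Rrm1 (6.09) and Bub1 (3.67), and replicate 4 the lowest Ccne1 (5.74) and Aurkb (5.47). Among beta arrays Cdk1 was highest at 6.40 on replicate 1, Cdkn1b highest at 8.75 on replicate 5, and Cdk6 (5.13) and Nusap1 (4.45) lowest on replicate 2. Top2a, although 1.56 above all other arrays on Pdx1-deficient replicate 1, was not among the 15.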

How the results depend on the processing

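The count of members past the threshold was 0 in Pdx1-deficient against beta and in Pdx1-deficient against alpha in every alternative, those that left out 1 array included. In alpha against beta it was 1, Cdk4, but 0 after quantile normalization, 0 with trend and robust moderation and 0 with the replicate block, and 2 (Cdk4 and Ccnd1) when alpha replicate 2 and Pdx1-deficient replicate 1 were both left out. It was 0 to 1 when 1 array was left out. The cause of these changes was not tested. Medians over all members moved by less than the spread in every alternative: with 1 array left out they ran from -0.02 to 0.14, from -0.03 to 0.04 and from -0.04 to 0.13 in Pdx1-deficient against beta, alpha against beta and Pdx1-deficient against alpha. Averaging both Cdkn1b clusters moved its difference from beta to 0.13 in Pdx1-deficient and 0.44 in alpha cells, neither past the threshold.

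Counts over all genes moved more. Against beta, Pdx1-deficient arrays gave 217 genes, 4 after quantile normalization, 8 with the replicate block, 89 with only those 2 groups, 121 with trend and robust moderation, 384 with dim clusters removed, 626 without replicate 1 and alpha replicate 2, 548 without replicate 1, 21 without replicate 2, 1 without replicate 4, 0 without replicate 5, and 4, 69, 3 and 4 without beta replicates 1, 3, 4 and 5. Alpha arrays gave 806 genes and 328 to 1430 over the alternatives. After quantile normalization 42.2% of the genes called there were higher in alpha cells, against 22.1% as reported. Pdx1-deficient against alpha gave 0 genes, but 145 without alpha replicate 2.

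Replicate numbers are shared by the groups. Correlations of the deviations of same-numbered arrays ran from -0.12 to 0.114 in Pdx1-deficient and beta arrays and from -0.172 to 0.221 in Pdx1-deficient and alpha arrays. In alpha and beta arrays all 5 were positive, from 0.005 to 0.224, and 3 of the 5 were over 0.1. In 7 of 30 comparisons an array was closest to its own number. The labels do not say that a number marks a shared animal or day, and the main fit did not pair the arrays. With the replicate block Cdk4 in alpha against beta had limma adjusted p = 0.0751.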
